A study of Homo sapiens with 4 samples.

Results

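The 10 genes described here encode brakes on signaling from receptor tyrosine kinases through RAS to ERK. They were chosen by name, with earlier results of these data known, from the 20372 genes counted in TPC1 cells treated with the RET inhibitor BLU6864. They comprise the Sprouty genes SPRY1, SPRY2, and SPRY4, the Sprouty-related genes SPRED1, SPRED2, and SPRED3, IL17RD, and the RAS GTPase-activating protein (RAS-GAP) genes NF1, RASA1, and RASA2. The paper names SPRY1 and SPRY2 among the genes induced in adaptive resistance. All 10 genes had enough counts to be tested, as did 12876 genes of the whole table. TPC1 is a human papillary thyroid carcinoma cell line with a CCDC6-RET rearrangement, grown with serum, and every library came from this 1 line. The groups were cells exposed to BLU6864 for 6 h and cells exposed to it for 24 h, with 2 libraries each, so both groups carried the same rearrangement and the same drug and differed in time of exposure. The sample labels give the dose as 100 µM, whereas the methods give 100 nM, and the 24 h samples carry a re-analysis mark in their titles. No source states that the 2 libraries of a time point came from separate cultures, so P values measure the spread between these libraries, which may be technical.

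RAS is active while it holds GTP. RAS-GAPs such as neurofibromin (NF1) and p120 RasGAP (RASA1) make RAS hydrolyze GTP and so switch it off, Sprouty proteins interrupt the path from receptor to RAS and RAF, and SPRED proteins bring neurofibromin to RAS at the membrane. Several Sprouty and SPRED genes are themselves transcribed in response to ERK, which makes them feedback regulators in normal tissue and in tumors driven by this pathway, whereas NF1 and RASA1 are known mainly as standing suppressors of RAS that are lost by mutation in disease.

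Libraries held between 23917056 and 27457040 counted reads. The thyroid label was checked against defining markers. PAX8, a thyroid transcription factor, had between 19124 and 22978 raw counts, FOXE1 between 273 and 556, and TG, which encodes thyroglobulin, between 98 and 245, whereas TSHR and NKX2-1 were at 0 in all 4 libraries and SLC5A5 had at most 7. Of the 3 thyroid markers tested, 1 was higher and 1 lower at 24 h. Keratin and EPCAM counts summed to between 2878 and 3422 per library, almost all of them from keratins. EPCAM itself had only 11 and 6 raw counts at 6 h and 1 and 1 at 24 h, too few to be tested. Counts of 5 leukocyte markers summed to between 6 and 9, and those of CDH5 and VWF to between 4 and 17. PECAM1 was listed too, but no gene of that name was among those counted. Of the 4 epithelial markers tested, 2 were higher and 1 lower, 0 leukocyte markers were tested, and VWF, the 1 endothelial marker tested, had 16 and 11 raw counts at 6 h and 3 and 5 at 24 h, lower by edgeR but not by DESeq2, which called 0 endothelial markers. The 6 cell division markers were all lower at 24 h, with sums of 38026 and 41542 raw counts at 6 h and 1925 and 1985 at 24 h. Their part in the changes described below was not tested, and in bulk RNA a smaller share of cycling cells cannot be told apart from less of these transcripts per cell.

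Because SPRY2, SPRY1, SPRED2, and IL17RD rose together whereas NF1 did not pass the test, the 250 bases before the transcription start of each of these 5 genes are shown, from RefSeq on GRCh38.p14. They lie on the minus strand at chr13:80341127-80341376 for SPRY2, on the plus strand at chr4:123396545-123396794 for SPRY1, and on the minus strand at chr2:65432600-65432849 for SPRED2. For IL17RD the window is chr3:57165354-57165603 on the minus strand, and for NF1 it is chr17:31094727-31094976 on the plus strand. Capitals mark matches on either strand to the letters CCGGAA (an ETS site, longer than the GGAA core), TGACGTCA (a cAMP response element), TGANTCA (an AP-1 site), or GGGCGG (a GC box). None of these overlapped another in these windows.
SPRY2: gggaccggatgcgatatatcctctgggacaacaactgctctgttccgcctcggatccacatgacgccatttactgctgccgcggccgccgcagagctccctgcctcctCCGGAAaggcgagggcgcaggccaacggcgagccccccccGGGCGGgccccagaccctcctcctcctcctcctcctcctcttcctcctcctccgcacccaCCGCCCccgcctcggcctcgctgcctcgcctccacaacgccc
SPRY1: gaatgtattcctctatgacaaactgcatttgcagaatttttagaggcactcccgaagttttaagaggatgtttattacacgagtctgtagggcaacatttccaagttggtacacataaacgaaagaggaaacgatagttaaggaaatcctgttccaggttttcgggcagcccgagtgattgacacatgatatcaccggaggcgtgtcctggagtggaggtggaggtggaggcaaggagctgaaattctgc
SPRED2: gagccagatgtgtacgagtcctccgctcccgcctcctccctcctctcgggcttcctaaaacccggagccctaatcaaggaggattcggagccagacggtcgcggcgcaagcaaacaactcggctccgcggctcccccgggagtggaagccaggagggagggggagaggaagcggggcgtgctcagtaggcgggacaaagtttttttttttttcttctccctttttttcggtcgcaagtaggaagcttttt
IL17RD: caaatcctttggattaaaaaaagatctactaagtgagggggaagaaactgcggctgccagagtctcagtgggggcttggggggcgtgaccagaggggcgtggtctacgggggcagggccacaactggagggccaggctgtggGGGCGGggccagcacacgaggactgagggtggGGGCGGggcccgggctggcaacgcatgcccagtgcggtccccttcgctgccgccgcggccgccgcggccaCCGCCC
NF1: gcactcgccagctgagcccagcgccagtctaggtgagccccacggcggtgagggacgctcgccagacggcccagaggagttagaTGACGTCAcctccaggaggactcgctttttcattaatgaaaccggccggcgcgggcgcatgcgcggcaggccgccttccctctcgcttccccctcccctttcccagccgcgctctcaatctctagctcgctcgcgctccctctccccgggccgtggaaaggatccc

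None of the 4 motifs marked above was shared by all 4 genes that rose most. The SPRY2 window held 1 CCGGAA, from 142 to 137 bases before the start, and 2 GC boxes. The IL17RD window held 3 GC boxes, and the SPRY1 and SPRED2 windows held 0 matches to the 4 motifs. The shorter ETS core GGAA was not counted, and it occurs in every window shown above, that of NF1 included. The NF1 window held the only TGACGTCA among the 9 members with a RefSeq promoter, from 166 to 159 bases before the start. Over 34788 promoter windows of the same length, 14.5% held CCGGAA, 42.6% a GC box, 6.59% TGANTCA, and 1.64% TGACGTCA. The SPRY1 window was the lowest of the 9 in G and C, at 45.6% against 58.8% in SPRED2 and 78.4% in SPRED1. The median over all promoter windows was 58.0%. SPRY1, SPRY2, SPRED2, and IL17RD have further promoters in RefSeq, and these counts say nothing of which start TPC1 cells use.

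Setting 24 h of BLU6864 against 6 h asks which genes differed between these times of exposure to the RET inhibitor. No vehicle library is among the 4, and the re-analysis mark is on the 24 h samples alone. Longer drug exposure therefore cannot be told apart from time in culture or from whatever that mark stands for. Of the 10 negative regulators, 6 passed edgeR's quasi-likelihood test upward (higher at 24 h, adjusted P under 0.05), against 33.0% of all genes tested. These were all 3 Sprouty genes, SPRED1, SPRED2, and IL17RD. None (0) of the 10 was lower, against 32.6% of all genes tested. At an unadjusted P under 0.05, 0 were lower too, but the share of all genes at that P was not counted. DESeq2 also called 6 in all, 0 of them lower, beside 3584 higher and 3608 lower of all 12876 genes. The study's methods state a cutoff for falling genes, a log2 fold change under -0.5 with P under 0.01. With P taken before adjustment and the same cutoff turned upward for rising genes, which the methods do not state, 4 were higher, against 17.4% of all genes, and 0 were lower, against 17.7%. The median log2 fold change of the 10 genes was 0.38, beside 0.0029 for all genes tested. Both 24 h libraries lay above both 6 h libraries for 7 of the 10 genes and below them for 1, against 41.0% and 40.8% of all genes.

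**Figure D1:**
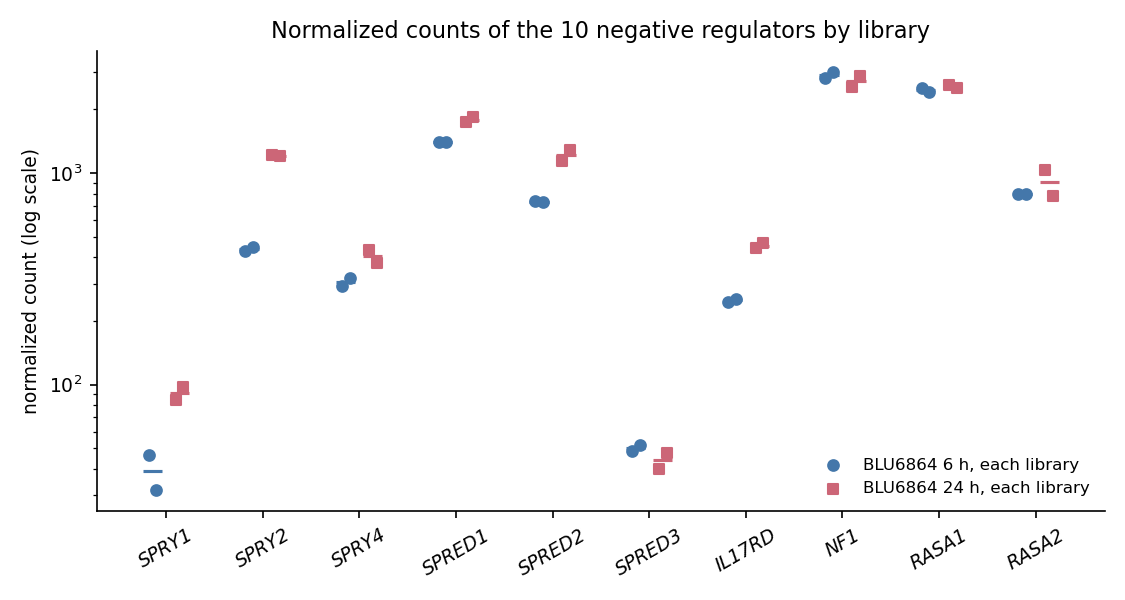
Normalized counts on a log scale of the 10 genes in each library, with circles for 6 h and squares for 24 h of BLU6864 and a bar at the mean of the 2 libraries. SPRY2 rose from between 431 and 446 to between 1204 and 1215, whereas the libraries of NF1 and RASA2 overlapped.

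SPRY2 encodes the most widely studied mammalian Sprouty protein, which is phosphorylated after growth factor stimulation and binds the adaptor GRB2 and the ubiquitin ligase CBL. It had 431 and 446 normalized counts at 6 h but 1215 and 1204 at 24 h. The time points were far apart and the libraries of each were close together. This was the largest change among the 10 genes, with a log2 fold change of 1.46 (95% confidence interval 1.29 to 1.63, adjusted P = 1.83e-14 by edgeR), and 3.46% of all genes tested had a larger one. It was between 1.44 and 1.49 with any 1 library left out. SPRY2 lies on the minus strand of chromosome 13, from 80910111 to 80915086 in hg19, and its canonical transcript has 2 exons.

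SPRY1, which restrains RET signaling during kidney development, was scarce. It had 43 and 33 raw reads at 6 h and 85 and 100 at 24 h, or 46.4 and 31.7 against 84.7 and 97.3 normalized counts. The time points did not overlap, but the 6 h libraries differed from each other by more in proportion than those of SPRY2. The log2 fold change was 1.23, with a wider confidence interval of 0.78 to 1.68 that overlapped the interval of SPRY2 (adjusted P = 1.99e-05 by edgeR). Without the first or the second 6 h library it was 1.52 or 0.97. The gene lies on the plus strand of chromosome 4, from 124317950 to 124324910.

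SPRY4 inhibits ERK activation by several receptors and was more abundant than SPRY1. It had 291 and 319 normalized counts at 6 h and 431 and 376 at 24 h. The groups did not overlap, but the rise was smaller, with a log2 fold change of 0.40 (95% confidence interval 0.18 to 0.62, adjusted P = 0.00181 by edgeR). Its interval lay below those of SPRY1 and SPRY2, although the difference itself was not tested, and SPRY4 did not reach the fold change cutoff of 0.5. With each library left out in turn, its log2 fold change lay between 0.30 and 0.50 with an adjusted P of at most 0.0395, and without the second 24 h library it passed that cutoff. SPRY4 lies on the minus strand of chromosome 5, from 141689992 to 141706020.

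**Figure D2:**
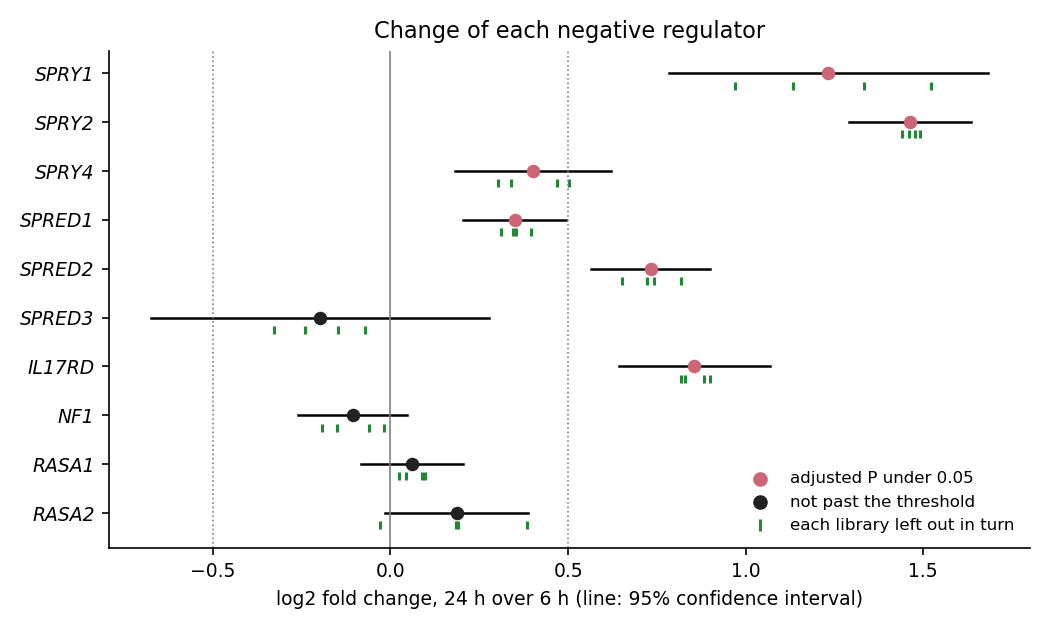
Log2 fold change of each gene between 24 h and 6 h, with points for the fit to all 4 libraries, horizontal lines for the 95% confidence interval, green ticks for fits with 1 library left out, and dotted lines at the cutoffs of 0.5 and -0.5. The intervals of SPRY2, SPRY1, IL17RD, and SPRED2 lie above 0.5, those of SPRY4 and SPRED1 above 0, and those of SPRED3, NF1, RASA1, and RASA2 include 0.

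Of the 3 SPRED genes, 2 rose. SPRED2, a membrane-associated inhibitor of RAF activation, had 737 and 728 normalized counts at 6 h and 1147 and 1287 at 24 h. Its 6 h libraries were nearly equal and both 24 h libraries were well above them, for a log2 fold change of 0.73 (95% confidence interval 0.57 to 0.90, adjusted P = 1.17e-08 by edgeR). SPRED1, whose loss causes Legius syndrome, had 1400 and 1408 normalized counts at 6 h and 1737 and 1842 at 24 h. This smaller rise also exceeded the spread between libraries, with a log2 fold change of 0.35 (95% confidence interval 0.20 to 0.50, adjusted P = 0.000111 by edgeR). SPRED3, which lacks a functional KIT-binding domain, had 45 and 54 raw reads at 6 h and 40 and 49 at 24 h. Its 24 h values after normalization, 39.9 and 47.7, were just below the 48.6 and 51.8 at 6 h. The log2 fold change of -0.20 (95% confidence interval -0.67 to 0.28, adjusted P = 0.464 by edgeR) leaves room for a moderate fall or a small rise, and neither was detectable at this depth. SPRED2 lies on chromosome 2 from 65537985 to 65659771, SPRED1 on chromosome 15 from 38544527 to 38649450, and SPRED3 on chromosome 19 from 38879061 to 38886881.

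IL17RD, also called SEF, is a transmembrane protein that binds FGF receptors and inhibits their signaling. It had 246 and 255 normalized counts at 6 h and 440 and 467 at 24 h. The time points did not overlap and each pair of libraries was close. The log2 fold change was 0.86 (95% confidence interval 0.64 to 1.07, adjusted P = 5.55e-08 by edgeR), larger than in all but 9.31% of the genes tested. Its position is chromosome 3 from 57124010 to 57204334, on the minus strand.

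Of the 7 SPRY, SPRED, and IL17RD genes, 6 rose, beside 33.0% of all genes tested that were higher by edgeR. Of the 3 RAS-GAP genes, 0 passed the test, beside 33.0% of all genes higher and 32.6% lower. With DESeq2 the number was also 0, beside 3584 higher and 3608 lower of all 12876 genes. It was 0 too at an unadjusted P under 0.05, where the share of all genes was not counted. The difference between the groups of genes was not tested. Among the other RAS-GAP genes, described below, 4 of the 6 tested were higher. NF1, the neurofibromin gene, had 2832 and 3019 normalized counts at 6 h and 2551 and 2884 at 24 h, so the time points overlapped. Its log2 fold change was -0.11, and the 95% confidence interval of -0.26 to 0.047 excludes a change as large as that of SPRED2 in either direction (adjusted P = 0.214 by edgeR). RASA1, the p120 RasGAP gene, had 2535 and 2409 normalized counts at 6 h and 2617 and 2540 at 24 h. The 24 h libraries were both above, but by less than the 6 h libraries differed from each other. The log2 fold change was 0.061 (95% confidence interval -0.083 to 0.21, adjusted P = 0.455 by edgeR).

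RASA2, which encodes another RAS-GAP that is mutated in some melanomas, was the only 1 of the 10 genes whose call by adjusted P changed when a library was left out. It had 796 and 798 normalized counts at 6 h, and 1036 and 779 at 24 h. The first 24 h library stood above the rest, and the second lay just below both 6 h libraries. The log2 fold change was 0.19 (95% confidence interval -0.016 to 0.39, adjusted P = 0.0983 by edgeR). Without the first 24 h library it was -0.030 (adjusted P = 0.809), and without the second it was 0.38 (adjusted P = 0.000998).

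Genes that overlap in position limit 2 of these results. NF1, on the plus strand of chromosome 17 from 29421945 to 29709134, holds EVI2A, EVI2B, OMG, and a further gene with 0 counts on the opposite strand. EVI2A had between 663 and 881 raw reads, EVI2B between 151 and 172, and OMG at most 8, and neither EVI2A (log2 fold change -0.061) nor EVI2B (-0.042) passed the test. The position of RASA1, on the plus strand of chromosome 5 from 86563705 to 86687748, overlaps that of CCNH on the opposite strand, which had between 1066 and 1229 raw reads and a log2 fold change of -0.13 (adjusted P = 0.151 by edgeR). The strand setting of the counting is not given in the sources used here, so reads of these pairs may be shared. RASA2, on chromosome 3 from 141205889 to 141334184, and the other 7 genes overlap no other gene of the table.

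**Figure D3:**
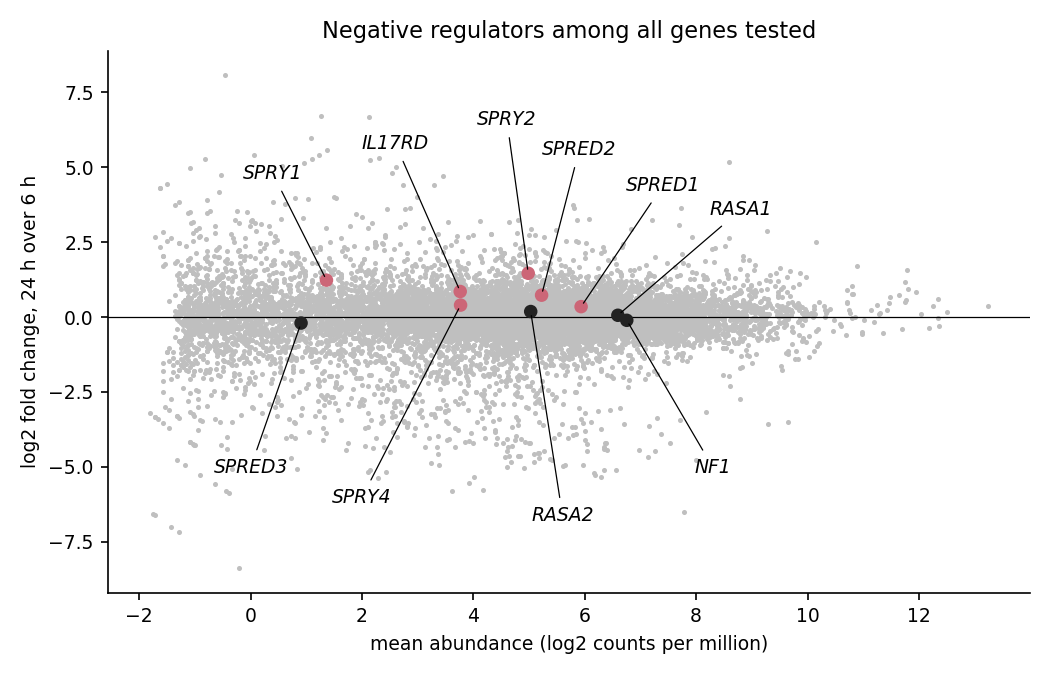
Log2 fold change between 24 h and 6 h against mean abundance in log2 CPM for all 12876 genes tested (gray), with the 10 negative regulators in red if their adjusted P was under 0.05 and in black otherwise. SPRY1 and SPRED3 are the least abundant of the 10, and all 10 lie between -0.20 and 1.46.

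To compare levels between genes, normalized counts were divided by the length of the canonical transcript in kb. At 6 h the order of these levels per kb was RASA1 with 521 ± 18.7 (SD, n = 2), NF1 with 236 ± 10.7, SPRED1 with 193 ± 0.802, and SPRY2 with 192 ± 4.76, followed by SPRED2 with 162 ± 1.43 and RASA2 with 141 ± 0.327. SPRED1 and SPRY2 did not differ beyond their spread. SPRY4 (62.2 ± 3.90), IL17RD (28.8 ± 0.737), SPRY1 (15.0 ± 4.01), and SPRED3 (10.5 ± 0.477) were below the others on this scale. At 24 h, SPRY2 was second with 529 ± 3.62, next to RASA1 with 543 ± 11.5, and the libraries nearest to each other were at 532 and 535. SPRED2 with 269 ± 22.0 and SPRED1 with 246 ± 10.3 came next, with their nearest libraries at 254 and 253, and then NF1 with 220 ± 19.1 and RASA2 with 161 ± 32.3. The last 4 were SPRY4 at 82.3 ± 8.04, IL17RD at 52.2 ± 2.17, SPRY1 at 35.0 ± 3.43, and SPRED3 at 9.14 ± 1.16. Per kb of coding length, the 24 h libraries of SPRY2 were at 1286 and 1274 and those of RASA1 at 833 and 809, so the order of these 2 genes turns with the length used. Much of the rest of the order turns too. On the coding scale SPRED1 led at both times, with 1051 and 1057 at 6 h, where RASA1 had 807 and 767, and with 1304 and 1383 at 24 h. NF1, second at 6 h per kb of transcript, had 332 and 354 per coding kb, within the spread of SPRY4 with 325 and 355 and next to RASA2 with 312 and 313. At 24 h SPRY4 with 481 and 419 was above NF1 with 299 and 339. IL17RD, SPRY1, and SPRED3 were the lowest 3 genes on both scales and at both times.

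The makeup of the Sprouty transcripts differed between the time points. The summed level per kb of SPRY1, SPRY2, and SPRY4 went from 266 and 272 at 6 h to 652 and 641 at 24 h, 2.40-fold higher on average. SPRY2 made up 70.9% and 71.7% of this sum at 6 h and 81.5% and 82.2% at 24 h. The share of SPRY4 was 22.4% and 23.9% at 6 h and 13.5% and 12.0% at 24 h, although its own level was higher at 24 h. The share of SPRY1 overlapped between the time points, with 6.71% and 4.47% against 4.99% and 5.84%. The shares of SPRY2 and SPRY4 did not overlap, but 2 libraries against 2 cannot give an exact two-sided permutation P below 0.33, so no test was run.

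The summed SPRED level per kb was 366 in each 6 h library, whereas it was 501 and 548 at 24 h, 1.43-fold higher on average. SPRED2 accounted for 44.6% and 44.1% at 6 h and for 50.7% and 52.0% at 24 h, while SPRED1 went from 52.6% and 53.0% to 47.7% and 46.2%. SPRED3 was at most 2.96% of the sum in any library. With coding length in place of transcript length, SPRED1 remained ahead of SPRED2 at 24 h, with 57.2% against 41.3%, so which of the 2 led at 24 h depends on the length used. The rise in the share of SPRED2 does not, since it was 34.8% at 6 h on that scale.

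**Figure D4:**
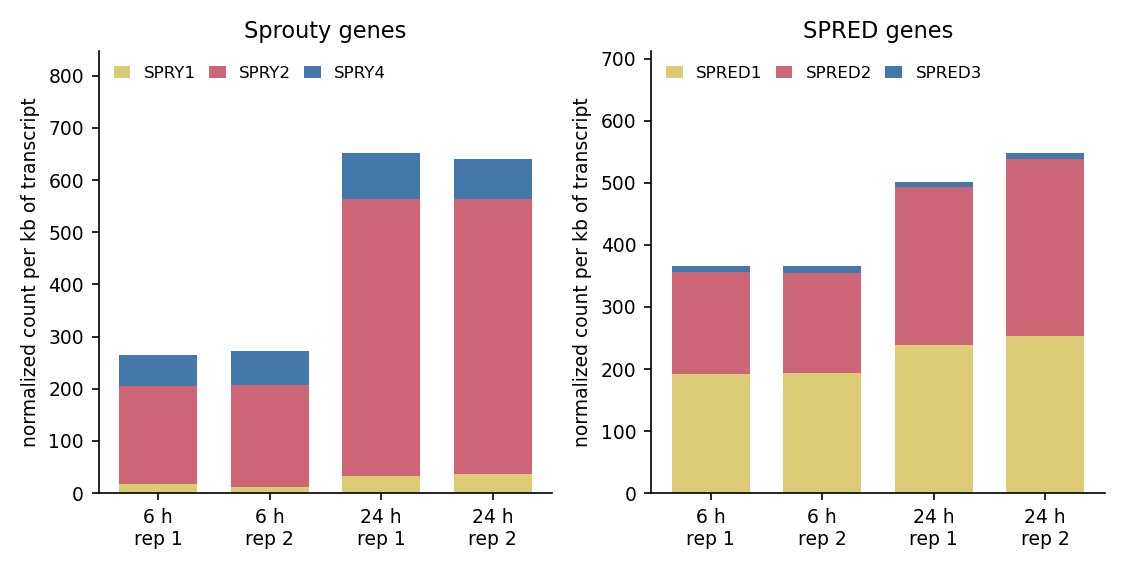
Stacked bars of the normalized count per kb of canonical transcript in each library for the Sprouty genes (left) and the SPRED genes (right), with 2 libraries at 6 h and 2 at 24 h. SPRY2 fills most of each Sprouty bar and the sum goes from 266 and 272 to 652 and 641, whereas SPRED1 and SPRED2 share the SPRED bars nearly evenly.

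Of 10739 other genes with a mean normalized count of at least 100, those most like SPRY2 over the 4 libraries were CLDN1, KCNIP1, and SMYD5, by Euclidean distance between centered log2 CPM, the counts scaled to library size (0.0429, 0.0581, and 0.0706). CLDN1, which encodes a tight junction protein, had 13062 and 13074 normalized counts at 6 h and 36607 and 35368 at 24 h, for a log2 fold change of 1.46. The log2 fold change was 1.44 for KCNIP1, which encodes a regulator of potassium channels, and 1.41 for SMYD5.

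The other genes that act on RAS were then examined from lists of named genes, chosen with earlier results of these data known. Of 8 other RAS-GAP genes, 6 were tested, and 4 of these were called higher and 0 called lower by edgeR, beside 33.0% and 32.6% of all genes. The numbers were also 4 and 0 at an unadjusted P under 0.05, but the share of all genes at that P was not counted. DESeq2 called 3 higher and 0 lower, beside 3584 and 3608 of all 12876 genes. Their median log2 fold change was 0.46. RASA3, a GAP for RAS and RAP1, had 1350 and 1414 normalized counts at 6 h and 3062 and 2986 at 24 h, with no overlap and a log2 fold change of 1.13 (adjusted P = 1.54e-13 by edgeR). RASAL1, a GAP regulated by calcium, rose with a log2 fold change of 0.89, and DAB2IP, a GAP that is often silenced in tumors, with 0.68. RASA3 thus rose while RASA1 and RASA2 did not pass the test, and the difference between them was not tested.

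The exchange factors load RAS with GTP and so oppose the GAPs. Of 8 listed, 6 were tested, with 3 higher and 0 lower by edgeR, beside the same 33.0% and 32.6% of all genes. DESeq2 gave the same numbers, beside 3584 and 3608 of all 12876 genes. At an unadjusted P under 0.05 they were 4 and 0, but the share of all genes at that P was not counted. The median log2 fold change was 0.37. RASGRP2, which acts on RAP1, had 22.7 and 18.2 normalized counts at 6 h and 66.8 and 74.9 at 24 h, for a log2 fold change of 1.80. RASGRF1 had only 1 and 7 raw reads at 6 h against 19 and 18 at 24 h, so the size of its rise is uncertain (adjusted P = 0.00118 by edgeR). RASGRF2 was higher with a log2 fold change of 0.59, whereas SOS1, the exchange factor that GRB2 brings to receptors, had one of -0.0034 and did not pass the test.

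Of 10 other inhibitors of receptors and RAS, 7 were tested, with 3 higher and 0 lower by edgeR, by DESeq2, and by P before adjustment. For P before adjustment the share of all genes was not counted. The number higher was near the share of all genes by edgeR, 33.0%, and 32.6% of all genes were lower by edgeR. DESeq2 called 3584 higher and 3608 lower of all 12876 genes. The median log2 fold change of the list was 0.15. LZTR1, which directs RAS proteins to degradation, had 731 and 770 normalized counts at 6 h and 1309 and 1401 at 24 h, for a log2 fold change of 0.85 (adjusted P = 3.37e-10 by edgeR). LRIG3 and LRIG2, members of a family of transmembrane regulators of receptors, rose with log2 fold changes of 0.49 and 0.37. SPRY3, the remaining Sprouty gene, had 0 counts in all 4 libraries.

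Of the 13 genes listed for their transcription in response to ERK, 7 were higher and 4 lower, beside 33.0% and 32.6% of all genes, so the number lower was near the background. DESeq2 called 5 higher and 3 lower, beside 3584 and 3608 of all 12876 genes. The median log2 fold change was 0.30. EPHA4, an ephrin receptor, had 75.6 and 49.9 normalized counts at 6 h and 362 and 353 at 24 h, for a log2 fold change of 2.52. FOSL1, an AP-1 subunit, and EPHA2, another ephrin receptor, followed with 1.02 and 0.96. By contrast, PHLDA1 fell from 11183 and 10887 to 6626 and 6827 normalized counts, a log2 fold change of -0.71. DUSP6, the ERK phosphatase, had 1645 and 1541 normalized counts at 6 h and 1195 and 1077 at 24 h, for a log2 fold change of -0.49 (adjusted P = 2.68e-06 by edgeR), and ETV4 had one of -0.43. DUSP6 and SPRY4, which are commonly measured together as products of ERK signaling, thus differed in direction, with both groups of libraries apart in each.

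**Figure D5:**
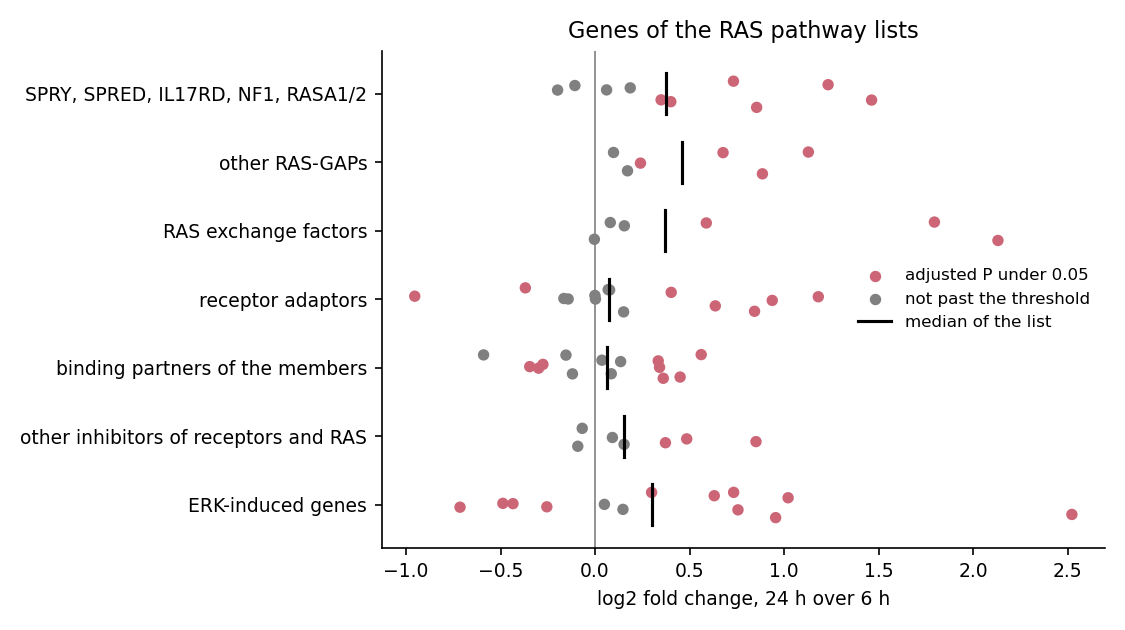
Log2 fold change between 24 h and 6 h of each tested gene in the 10 negative regulators and in 6 other lists, in red if the adjusted P was under 0.05 and in gray otherwise, with a black bar at the median of each list. Changes called in the first 3 lists and in the other inhibitors are all upward, whereas the adaptors, binding partners, and ERK-induced genes hold calls in both directions.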

How the data were processed

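TPC1 RNA was sequenced by the authors in 2 libraries at 6 h and 2 at 24 h of BLU6864. Reads were aligned with STAR to hg19, with version 2.3 in the submitters' processing notes and a later version in the paper's methods. The sample labels give single-end reads, whereas the methods give paired-end reads. The authors deposited raw counts per gene, without normalization. They also deposited a normalized signal, the count divided by a DESeq2 size factor per library, which was not used for any result. Their fold changes and P values from DESeq2 were not used. The counting program is not given in the sources used here.

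Counts were tested in edgeR 4.0.16 (R 4.3.3), with filterByExpr, TMM normalization, the quasi-likelihood test with time as the single factor, and Benjamini-Hochberg adjustment over 12876 genes. An adjusted P under 0.05 was the threshold, beside a log2 fold change past 0.5 in either direction with unadjusted P under 0.01, where the methods state only the cutoff of -0.5 and P under 0.01. Normalized counts are raw counts over each library's TMM-scaled size, set to a mean size of the 4 libraries. Standard errors and intervals follow from the F statistic. Positions are those of the deposited table. Strands and lengths came from GENCODE v44 canonical transcripts, matched by Ensembl identifier, and promoters from RefSeq, with the start nearest to the canonical one (9 of 10 genes matched). That start was 774 bases away for SPRY4, 1054 for RASA1, and 0 for the others.

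Alternatives were DESeq2 1.42.0, an adjusted P under 0.01, upper quartile scaling, library size alone, coding length, no filter, a minimum of 10 counts throughout, a replicate block, and each library left out in turn. The procedure was tested on data simulated with a common spread for all genes, which real genes need not share. At a simulated log2 fold change of 0.5, edgeR called 76.1% of changed genes and DESeq2 56.7%. At 1 they called 94.0% and 86.6%. Unchanged genes made up 7.69% of the edgeR calls and 0.0% of the DESeq2 calls. Members and lists (other RAS-GAPs, exchange factors, adaptors, binding partners, other inhibitors, ERK-induced genes, and thyroid, epithelial, leukocyte, endothelial, and cell division markers) were chosen with earlier results of these data known. Named from each list were up to 3 genes with the largest rise and 3 with the largest fall among those called. SOS1, SPRY3, and the marker genes were named after their values were seen. Not every gene of the marker lists is reported here. Total counts limit precision only for the least abundant genes, and counting error is part of the spread between libraries. Plots were drawn with matplotlib 3.10.9.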

Additional observations from a re-analysis of the deposited data

How the results depend on the processing

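The number of negative regulators called higher, 6, and the 0 called lower were also found under DESeq2, upper quartile scaling, library size alone, no filter, and at least 10 counts in every library, and when an adjusted P under 0.01 was asked for. RASA2 was the exception among the alternatives run, with a log2 fold change of 0.18 (adjusted P = 0.0277 by edgeR) with the replicate number as a block, and of -0.030 to 0.38 with 1 library left out. These last fits leave 1 library in a group, which is assumed to vary like the others. The other 9 genes had the same direction and the same call by adjusted P under 0.05 in every alternative run. By the fold change and P cutoffs, 4 genes were higher in all but 1 alternative, and 5 without the second 24 h library, where SPRY4 had a log2 fold change of 0.50. The replicate block also gave 4 adaptors lower in place of 2. Replicate numbers 1 and 2 occur at both times, but no source says what they mark, and the deviations of same-numbered libraries correlated at 0.0844 across genes. With coding length, the SPRY2 share of the Sprouty sum was 70.2% at 24 h and 54.9% at 6 h, and the SPRED2 share of the SPRED sum 41.3% and 34.8%. The shares move because the coding part is a different fraction of the canonical transcript in each gene. SPRY1 and SPRED3, with at most 100 raw reads in any library, are limited by depth.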

Other observations

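The adaptors that carry signals from receptors to RAS, on which Sprouty proteins act, moved in both directions. Of 16 listed, 14 were tested, with 5 called higher and 2 called lower at 24 h by edgeR, beside 33.0% and 32.6% of all genes, and a median log2 fold change of 0.073. The docking protein gene GAB3 had 132 and 121 normalized counts at 6 h and 289 and 283 at 24 h, for a log2 fold change of 1.18. CBLB, a ubiquitin ligase for activated receptors, and SHC2 rose with log2 fold changes of 0.94 and 0.84. GAB2 fell from 483 and 508 to 248 and 264 normalized counts, a log2 fold change of -0.95, so these docking protein genes moved in opposite directions. CRKL had a log2 fold change of -0.37.

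Of 15 genes for binding partners of the Sprouty, SPRED, and RAS-GAP proteins, 14 were tested, with 5 higher and 3 lower by edgeR, beside 33.0% and 32.6% of all genes, and a median log2 fold change of 0.061. DESeq2 called 5 higher and 4 lower, beside 3584 and 3608 of all 12876 genes. PPP2R1A, the scaffold subunit of protein phosphatase 2A, which acts on SPRY2, had 7154 and 6922 normalized counts at 6 h and 10470 and 10306 at 24 h. This is a log2 fold change of 0.56, whereas PPP2CA, a catalytic subunit of the same enzyme, had one of -0.35. G3BP1 and ARHGAP35, whose proteins bind p120 RasGAP, rose with 0.45 and 0.36. MKNK1, a kinase that phosphorylates SPRY2, and SIAH2, a ubiquitin ligase for it, had log2 fold changes of -0.30 and -0.28. The changes of all 8 genes called were smaller in size than that of SPRED2.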
